A study of Panicum virgatum with 54 samples.

Results

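Leaves of switchgrass that had been droughted for 72 h in separate growth chambers, before any heat, are set against each other here. The comparison takes 6 of the 54 libraries of the series: the 3 libraries of the drought-and-heat treatment at 72 h, whose titles give 0 h of heat, and the 3 libraries of the drought treatment at 72 h. All 32190 genes of the count table entered it, and 32011 had enough counts to be tested. The libraries were chosen by treatment and time alone, so no measured value decided which libraries entered.

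Switchgrass (Panicum virgatum) is a perennial C4 grass of the North American prairie, grown for forage and biomass. Every plant was the lowland genotype AP13, a selection from cultivar Alamo, propagated as ramets, which are rooted shoots split from a parent plant, so all groups are copies of a single clone. Leaves at stage E3 were taken from plants under drought and heat (called combined below), under drought alone and untreated (called control), at 0, 72, 96, 120, 144 and 168 h, with 3 libraries per group. Combined plants stood in a chamber of their own, while drought and control plants shared the other chamber. At 0 h and 72 h combined plants had received no heat by their titles, so at 72 h both groups were droughted plants, and what sets them apart by label is the chamber. Chamber and treatment arm cannot be told apart in this design. Whether the 3 libraries of a group are separate plants is not in the labels, so the p-values speak of library-to-library spread, part of which may be technical.

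Leaves that lose water accumulate abscisic acid, which closes stomata and switches on genes for protective proteins and compatible solutes, while genes of growth and photosynthesis are commonly turned down. Heat calls on heat shock factors and chaperones, and a closed stoma also removes evaporative cooling, so drought and heat interact in a leaf. Many leaf transcripts also follow the circadian clock, light and leaf temperature, and thus the settings of a growth chamber. None of the 32190 identifiers matched a gene in the annotation table of the later assembly, so genes are given by identifier with no name or function, and markers of leaf cell types or of stress pathways could not be looked up. Chromosomes are those coded in the identifier, K and N being the subgenomes of this allotetraploid.

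Total read counts in the 6 libraries ran from 33.1 to 44.1 M in combined leaves and from 26.7 to 37.5 M in drought leaves (M for mega), against 19.2 to 61.6 M over the series. Pairwise correlations of log2 CPM (counts per M of library size) across genes lay between 0.755 and 0.870 among the 3 combined libraries, between 0.910 and 0.925 among the 3 drought libraries, and between 0.915 and 0.962 among the 3 control libraries of 72 h. The median standard deviation of a gene over its 3 libraries was 0.46 log2 units in combined leaves, 0.39 in drought leaves and 0.26 in control leaves. The combined libraries at 72 h were thus the most spread of the 3 groups. Between combined and drought libraries the correlations ran from 0.745 to 0.913. Their median of 0.854 was near the median of 0.853 among the combined libraries, so these correlations did not separate the 2 groups. Combined replicate 1 correlated at 0.913, 0.907 and 0.868 with drought replicates 1, 2 and 3, against 0.870 and 0.853 with combined replicates 2 and 3. Replicates 2 and 3 each held genes far from the other 5 libraries of the comparison, and replicate 1 held 0 such genes.

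Combined replicate 3 carried a group of genes at a level seen in no other library of 72 h. In that library 33 genes with at least 5 CPM were at least 8-fold above each of the other 5 libraries. Their median level was 1.70, 2.78 and 52.2 CPM in combined replicates 1, 2 and 3, and 1.99, 1.14 and 1.35 CPM in the drought replicates. In the combined libraries of 96 h, with 24 h of heat by their titles, the same 33 genes had median levels of 41.1, 43.8 and 48.4 CPM, against 5.72 to 6.57 CPM in control leaves of 96 h. In 21 of the 33, every combined library of 96 h reached at least 50% of the level of combined replicate 3 at 72 h. Combined replicate 3 therefore stood, for these genes, at the level of the combined libraries of 96 h, and its label gives 0 h of heat. In combined replicates 1, 2 and 3 of 120 h, with 48 h of heat by title, their medians were 33.8, 32.1 and 3.97 CPM. At 144 h, with 72 h of heat, they were 1.33, 1.34 and 3.92 CPM. These genes were thus not high in every heated library, and why replicate 3 of 72 h carried them was not tested.

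Combined replicate 2 carried a different group. There 137 genes with at least 5 CPM were at least 8-fold above each of the other 5 libraries, with a median of 26.4 CPM. They were high in some libraries of 0 h too, with medians of 27.0, 13.6 and 6.11 CPM in the control leaves of 0 h and of 9.09, 0.519 and 21.0 CPM in the drought leaves of 0 h. In the combined leaves of 96 h their medians stayed below 1 CPM. These genes came and went among single libraries of several groups, and 5 of the 137 passed the test between combined and drought leaves at 72 h described below, as did 21 of the 33 genes of replicate 3, where 2.55% of all genes passed. The values of these same libraries chose both groups, so nothing is read from those counts.

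A further group concerned combined replicates 1 and 2. A search among the libraries of 0 h had found 405 genes nearly absent from combined replicate 2 and drought replicate 1 of that time. At 72 h their median level, as a percentage of that in the other 7 libraries of 0 h, was 34.7%, 0.462% and 109% in combined replicates 1, 2 and 3, against 87.7%, 78.3% and 115% in the drought replicates and 79.9% to 90.2% in the control replicates. Combined replicate 2 was likewise near 0 at 0 h, with 0.50%, and at 96 h, with 0.460%. Without every library whose level was under 0.75 of the usual, which leaves combined replicate 3 as the only combined library of 72 h, the comparison below gave 1874 genes in place of 815.

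**Figure D1:**
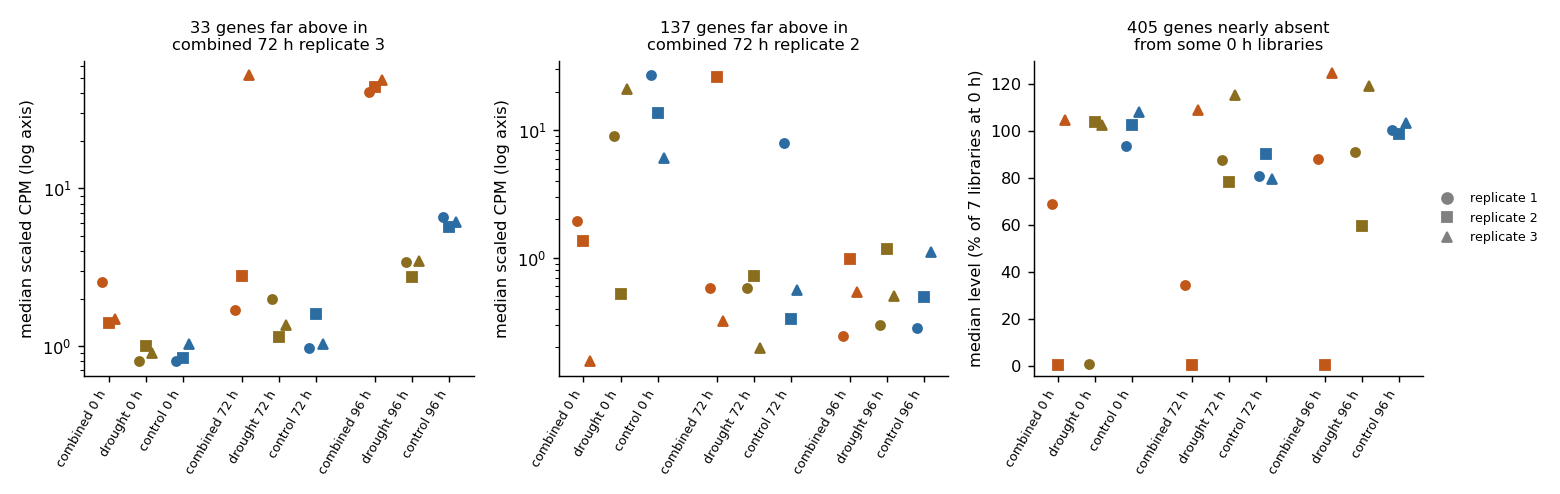
Median level in each library at 0, 72 and 96 h of 3 groups of genes in which single combined libraries of 72 h stood apart. Left and middle, median scaled CPM on a log axis of 33 genes and 137 genes; right, median level of 405 genes as a percentage of that in 7 libraries of 0 h. Points are libraries, marker shape gives the replicate number, and combined replicate 3 at 72 h sits with the combined libraries of 96 h in the left panel.

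At 72 h, combined leaves differed from drought leaves in 815 of 32011 genes (2.55%). These passed edgeR's quasi-likelihood test with Benjamini-Hochberg adjustment at a threshold of 0.05. Higher in combined leaves were 594 genes (1.86%), with a median log2 fold change of 1.53, and lower were 221 genes (0.69%), with a median of -1.27. Among the higher genes 491 differed by at least 2-fold and 170 by at least 4-fold, and among the lower genes 145 and 51 did. Over all genes the median log2 fold change was 0.03. In whole leaves, fewer cells of a type and less RNA per cell cannot be told apart.

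The size of the lists rested on single libraries. Without combined replicate 3, edgeR called 1 gene, and the number with an unadjusted p below 0.05 was 4713, against 5548 with all libraries. It called 1392 and 534 genes without combined replicates 1 and 2, and 420, 118 and 159 genes without drought replicates 1, 2 and 3. In a model of only the 6 libraries it called 0 genes (3534 unadjusted), while over all libraries DESeq2 called 1819 and limma-voom 426. Over the same 594 and 221 genes, the medians without combined replicate 3 were 1.06 and -1.14. The remaining libraries had helped to choose these genes, so their signs there were largely fixed by the choice.

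The genes named for the 72 h comparison were chosen with no overlap between combined and drought libraries, so that separation is fixed by the choice. The gene with the smallest p was Pavir.7KG171700.v4.1 on chromosome 7K. It had 65.0, 206 and 384 CPM in combined leaves, against 21.5, 11.5 and 13.2 CPM in drought leaves and 31.8, 43.0 and 44.5 CPM in control leaves. Every combined library was above every drought and every control library, and the 3 combined libraries were themselves far apart. The means were 218 ± 160 CPM in combined leaves and 15.4 ± 5.37 CPM in drought leaves (SD, n = 3 each), a log2 fold change of 3.82 ± 0.61 (SE, adjusted p = 0.00608, edgeR). Without combined replicate 3 the log2 fold change was 3.13, with an adjusted p of 0.0594 from edgeR.

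Pavir.3KG324200.v4.1 on chromosome 3K was more even. Its level was 36.4, 43.6 and 94.1 CPM in combined leaves, against 16.9, 12.3 and 17.1 CPM in drought leaves and 19.6, 21.8 and 27.1 CPM in control leaves. The groups did not overlap, which for combined and drought leaves the choice of genes required. Combined replicate 3 was again the highest library. The log2 fold change was 1.91 ± 0.31 (SE, adjusted p = 0.00608, edgeR), and 1.38 without combined replicate 3 (adjusted p = 0.0839, edgeR).

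On the lower side, Pavir.1KG376100.v4.1 on chromosome 1K had 19, 26.5 and 16.9 CPM in combined leaves, against 31.9, 56.1 and 42.2 CPM in drought leaves. The control leaves, at 35.6, 35.0 and 33.1 CPM, lay above all combined libraries too. The gene was thus low in the combined libraries of 72 h and high in drought replicate 2. At 0 h it had 25.3, 32.1 and 29.7 CPM in combined leaves, against 28.7, 40.1 and 29.9 CPM in drought leaves. The log2 fold change at 72 h was -1.06 ± 0.20 (SE, adjusted p = 0.00649, edgeR). It was no longer called without combined replicate 3 (-0.93, adjusted p = 0.0944, edgeR) or without drought replicate 2 (-0.83, adjusted p = 0.0522, edgeR).

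Pavir.5NG105400.v4.1 on chromosome 5N showed the opposite kind of spread. It was at 1.41, 1.66 and 1.73 CPM in combined leaves, against 142, 31.4 and 9.996 CPM in drought leaves and 12.2, 2.69 and 3.6 CPM in control leaves. Here the combined libraries were tight and low, and the drought libraries ranged widely above them. The log2 fold change was -5.25 ± 1.00 (SE, adjusted p = 0.00779, edgeR), and it was not called without combined replicate 3 (-5.31, adjusted p = 0.0880, edgeR).

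**Figure D2:**
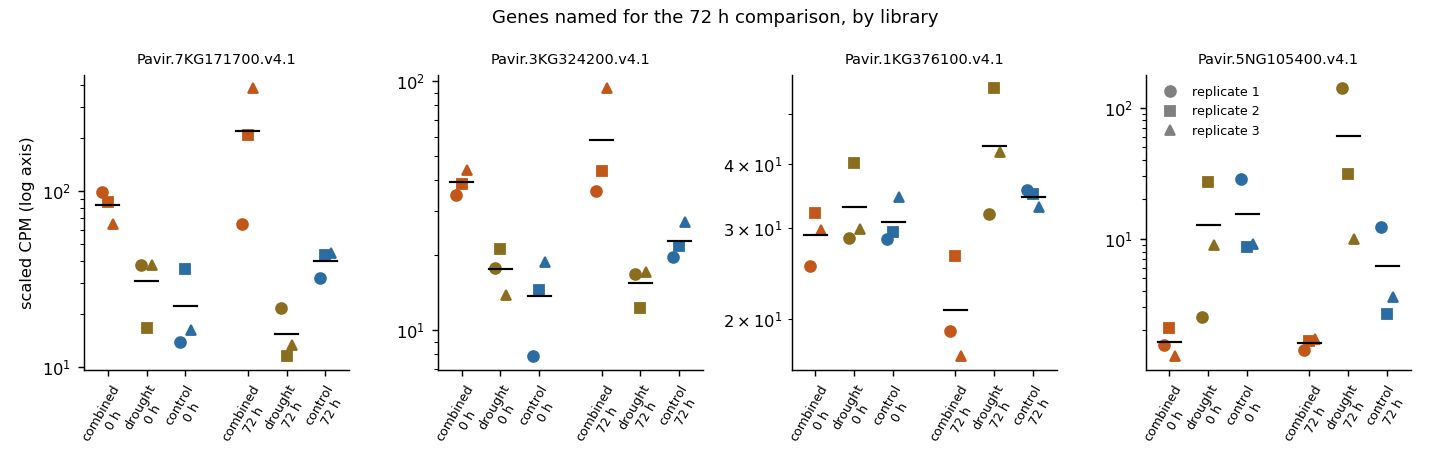
Scaled CPM, on a log axis, of the 4 genes named for the 72 h comparison in each library of combined, drought and control leaves at 0 and 72 h. Points are libraries, marker shape gives the replicate number and black bars are means of 3 libraries. At 72 h the combined libraries lie wholly above the drought libraries for the 2 higher genes and wholly below them for the 2 lower genes. The choice of genes required this separation.

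Unlike these examples, which were chosen for it, the lists as a whole were not free of overlap. The libraries of the 2 groups overlapped in 118 of the higher and 10 of the lower genes. Of the 594 higher genes, 476 (80.1%) had all combined libraries above all drought libraries, against 7.71% of all genes tested, and of the 221 lower genes 211 (95.5%) had all combined libraries below, against 8.58%. The test itself chose the genes, so these shares describe the lists and support nothing further. Taken by library, the median log2 difference of the higher genes from the drought mean was 0.78, 1.23 and 2.13 in combined replicates 1, 2 and 3, and that of the lower genes was -1.05, -1.21 and -1.45. Combined replicate 3 was the highest of the 3 combined libraries in 499 of the 594 higher genes (84.0%), against 41.7% of all genes. Combined replicate 3 was the lowest in 52.9% of the lower genes, against 34.9% of all genes, and combined replicate 1 in 14.9%, against 32.5%. The lower list thus leaned on combined replicate 3 too, though less than the higher list.

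In share of the transcriptome, the 594 higher genes took 1.58%, 2.0% and 4.81% of the counts of the combined libraries, against 0.969%, 0.791% and 0.832% in the drought libraries and 1.01% to 1.03% in the control libraries. The 221 lower genes took 0.794%, 0.662% and 0.675% in the combined libraries, against 2.13%, 1.61% and 2.03% in the drought libraries and 1.14% to 1.28% in the control libraries. For both lists every combined library lay on the other side of the control range from every drought library. The combined and drought libraries chose the lists, so this is partly fixed by the choice.

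The lower genes were the more abundant list, with a median of 34.1 CPM over the compared libraries, against 17.6 CPM for the higher genes and 10.7 CPM for all genes. Calls depended on abundance: 0.195% of genes under 1 CPM and 0.963% of genes of 1 to 5 CPM were called in either direction, against 2.4%, 4.36% and 3.57% in the classes of 5 to 20, 20 to 100 and over 100 CPM. Large folds were mostly not calls. Of 135 genes with a log2 fold change of 5 or more, 5 were called, and of 29 genes at -5 or less, 15 were. Of the genes with 0 counts in all 3 libraries of a group, 5 were at 0 in combined leaves and 27 in drought leaves, and in none of them were the other 3 libraries all above 3 counts, so no gene was detectably switched off in a single chamber at this depth.

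The calls were spread over the genome. On the K subgenome 302 of 15664 genes (1.93%) were higher and 101 (0.645%) lower in combined leaves, and on the N subgenome 271 of 14899 (1.82%) and 113 (0.758%). By chromosome the share of higher genes ran from 1.46% on 2N to 2.75% on 8N, and the share of lower genes from 0.108% on 8K to 1.17% on 5N. In the order of identifiers along the chromosomes, 19 pairs of neighbouring tested genes were called in the same direction and 8 in opposite directions. The longest run of neighbours called in the same direction held 3 genes. Near-identical K and N copies and overlapping genes can share reads in the counting, and the value of each such gene is uncertain.

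Controls place the difference on a scale. At 72 h, 430 genes (1.34%) were above and 82 (0.256%) below control in combined leaves, while 1 gene (0.00312%) was higher and 14 (0.0437%) were lower in drought leaves than in control leaves. Both comparisons use the same control libraries, and each shares its stressed libraries with the comparison of combined and drought leaves. Between combined and control leaves, edgeR called 0 genes without combined replicate 3 (2769 unadjusted), 1764 without combined replicate 1, and 3, 39 and 10 without control replicates 1, 2 and 3. Between drought and control leaves it called 0 genes without any 1 of the drought replicates (2569, 3027 and 1210 unadjusted) and without control replicate 1 (1480 unadjusted). With all libraries DESeq2 called 1250 genes between combined and control leaves and 161 between drought and control leaves.

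For the 594 higher genes the median log2 difference from control was 1.10 in combined leaves and -0.33 in drought leaves, and for the 221 lower genes it was -0.84 and 0.43. Drought leaves thus lay on the far side of control from combined leaves in both lists, at a smaller distance. The same drought libraries helped to choose the lists, so this position is partly fixed by the choice. None (0) of the genes of either list were called between drought and control leaves, against 1 higher and 14 lower among all genes. The control mean was between the other groups in 82.5% of the higher genes and in 91.9% of the lower genes, against 41.0% of all genes, a share that choosing genes with a large difference raises by itself.

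The same pair of chambers can be compared at 0 h, with 6 other libraries, at the start of the time course. There no gene was called by edgeR (0%, in either direction), with 3753 genes at an unadjusted p below 0.05, while DESeq2 called 448 genes and limma-voom 0. Without drought replicates 1 and 2 of 0 h, in turn, edgeR called 7 and 110 genes. The lists of 72 h were nevertheless off centre. At 0 h the 594 higher genes stood at a median log2 difference of 0.44, 500 of them (84.2%) were positive, and 255 (42.9%) had all combined above all drought libraries, against 8.53% of all genes. The 221 lower genes had a median of -0.25 at 0 h, 171 (77.4%) were negative, and 56 (25.3%) had all combined below all drought libraries, against 7.32% of all genes. Over all genes the median was 0.01 and 51.2% were positive. The median of the lower list at 0 h was -0.07 without drought replicate 2 of 0 h and -0.03 when the list was chosen and compared without the libraries low in the 405 genes. At 0 h, 172 of the higher (29.0%) and 63 of the lower genes (28.5%) had at least 50% of their 72 h difference. No share over all genes stands beside these counts, so nothing is read from them.

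Across all 32011 genes the differences of 0 h and 72 h were weakly related, with Pearson's r of 0.102 and Spearman's rho of 0.165. These are descriptions over genes, which are not independent, and libraries of a given number may share a plant across times. Between non-overlapping groups, 589 genes had all combined libraries above all drought libraries at both times and 354 below at both, while 42 were above at 72 h and below at 0 h and 100 were below at 72 h and above at 0 h. Taken singly, 7.71% of all genes were above and 8.58% below without overlap at 72 h, and 8.53% and 7.32% at 0 h.

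Over both unheated times together, with 6 libraries a side, combined leaves had 748 genes (2.34%) above and 378 (1.18%) below drought leaves, 1126 in all (3.52%). The 72 h libraries above are part of this comparison. With only the compared groups in the model edgeR called 259 genes, and limma-voom with a correlation estimated among libraries of a treatment and number called 152. The main count treats the 6 libraries a side as independent, although combined libraries of the same number at 0 h and 72 h correlated at -0.07, 0.66 and 0.43 in their deviations from the group means. Pavir.1NG064900.v4.1 on chromosome 1N had 53.1, 54.6 and 57.8 CPM in combined leaves, against 20.4, 23.8 and 22 CPM in drought leaves at 0 h. At 72 h it had 52.4, 53.6 and 93.9 CPM in combined leaves, against 23.5, 18.7 and 14.6 CPM in drought leaves. The gene was higher in the combined chamber at both times, and its mean log2 difference was 1.57 ± 0.23 (SE, adjusted p = 0.00033, edgeR). Genes named for both unheated times were chosen with no overlap between the groups at either time, so their separation is fixed by the choice.

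Pavir.3KG324200.v4.1, named above, had 34.8, 38.8 and 44.1 CPM in combined leaves, against 17.7, 21.2 and 13.9 CPM in drought leaves at 0 h, so it too was higher in the combined chamber at the start. Its mean log2 difference over both times was 1.53 ± 0.22 (SE, adjusted p = 0.00033, edgeR). Pavir.5KG562100.v4.1 on chromosome 5K went the other way, with 14.8, 19.4 and 10.4 CPM in combined leaves, against 31.4, 33.1 and 28.6 CPM in drought leaves at 0 h. At 72 h it had 16.5, 20.3 and 13.9 CPM in combined leaves, against 36.4, 44.7 and 41.5 CPM in drought leaves. The groups did not overlap at either time, as the choice of genes required, and the mean log2 difference was -1.17 ± 0.18 (SE, adjusted p = 0.00033, edgeR).

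Pavir.5NG055600.v4.1 on chromosome 5N was near its floor in the combined libraries of 0 h and 72 h. It had 0.540, 0.464 and 0.464 CPM in combined leaves, against 2.52, 56.5 and 11.2 CPM in drought leaves at 0 h. At 72 h it had 0.991, 0.630 and 2.45 CPM in combined leaves, against 56.8, 68.0 and 16.8 CPM in drought leaves. The mean log2 difference was -5.34 ± 0.82 (SE, adjusted p = 0.000393, edgeR), with no overlap at either time, as the choice of genes required. Its means at 96, 120, 144 and 168 h were 6.42, 6.03, 26.1 and 23.5 CPM in combined leaves. Those of drought leaves were 2.49, 1.59, 22.1 and 7.29 CPM, so the direction of 0 h and 72 h was not kept. Over both unheated times, 373 genes were called without combined replicate 3 of 72 h, 658 without drought replicate 3 of 0 h, 702 without drought replicate 3 of 72 h and 702 without combined replicate 2 of 0 h.

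**Figure D3:**
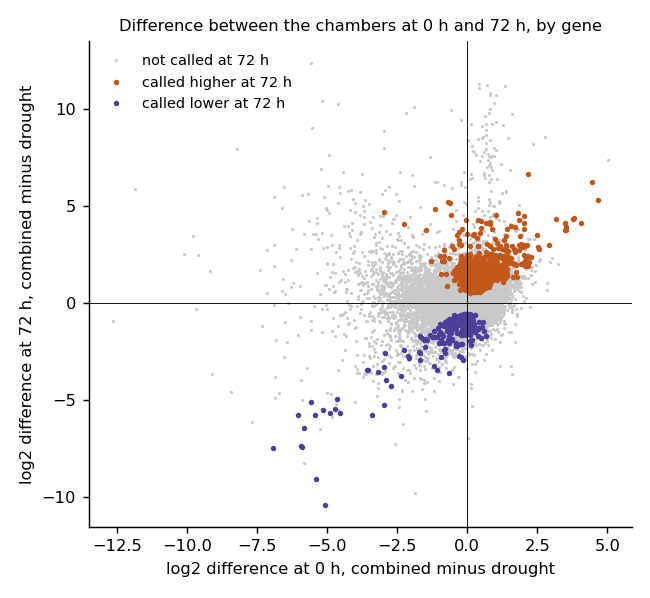
Log2 fold change of combined over drought leaves at 72 h against that at 0 h, for all 32011 genes tested, with the genes called at 72 h in colour. Each point is a gene. Over all genes the 2 differences are weakly related (r = 0.102), while the genes called higher and lower at 72 h have medians of 0.44 and -0.25 on the 0 h axis.

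Whether the difference itself changed between 0 h and 72 h was tested as an interaction. No gene was called by edgeR (0%), with 3480 genes at an unadjusted p below 0.05, while DESeq2 called 207 genes, of which 188 rose and 19 fell, and limma-voom called 0. Leaving out combined replicate 1 of 72 h gave 27 calls by edgeR. In simulated counts this interaction found 12% of the genes given a 4-fold change and 0% of those given a 2-fold change (over 32009 genes). Changes of that size were thus mostly missed in the simulation, with 3 libraries a group. Simulated libraries varied independently, with a spread set by the abundance of each gene, and none stood apart as combined replicates 2 and 3 did. The shares therefore do not give what the test could find in these data. The corresponding shares for the 72 h comparison were 74% and 5%.

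Of the genes with the smallest p in the interaction, Pavir.3NG056600.v4.1 on chromosome 3N switched sides. It had 7.16, 8.35 and 8.50 CPM in combined leaves, against 9.76, 8.76 and 21.1 CPM in drought leaves at 0 h. At 72 h it had 8.64, 12.3 and 13.3 CPM in combined leaves, against 6.08, 5.86 and 6.76 CPM in drought leaves. The change in the log2 difference was 1.60 ± 0.33 (SE), which did not pass the threshold (adjusted p = 0.22, edgeR). Pavir.8KG282900.v4.1 on chromosome 8K had 0.672, 20.2 and 31.2 CPM in combined leaves, against 0.452, 0.843 and 0.535 CPM in drought leaves at 72 h, and was between 0.556 and 2.10 CPM in all combined and drought libraries of 0 h. In combined leaves of 96 h it had 29.2, 36.0 and 25.5 CPM, against 0.447, 1.02 and 0.353 CPM in drought leaves, so combined replicates 2 and 3 of 72 h were near the level of the following time and combined replicate 1 was not. The change was 6.01 ± 1.32 (SE, adjusted p = 0.22, edgeR).

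On the falling side of the interaction, Pavir.5KG059700.v4.1 on chromosome 5K had 77.7, 71.7 and 60.4 CPM in combined leaves, against 49.7, 62.2 and 30.6 CPM in drought leaves at 0 h. At 72 h it had 58.0, 43.0 and 35.0 CPM in combined leaves, against 91.8, 79.8 and 91.7 CPM in drought leaves. The combined libraries were the higher group by mean at 0 h and the lower group at 72 h, and the change of -1.51 ± 0.34 (SE) did not pass the threshold (adjusted p = 0.22, edgeR). Pavir.1KG019200.v4.1 on chromosome 1K had 23.9, 25.6 and 24.4 CPM in combined leaves, against 34.4, 39.6 and 37.8 CPM in drought leaves at 72 h, and 34.4, 30.1 and 28.2 CPM in combined leaves, against 22.7, 28.4 and 25.4 CPM in drought leaves at 0 h. Its change was -0.88 ± 0.21 (SE, adjusted p = 0.22, edgeR).

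The later times ask whether the genes that differed before heat also differed at 96 to 168 h. By title, combined plants had 24, 48 and 72 h of heat at 96, 120 and 144 h. The titles of 168 h give no hours of heat. No library is shared with the 72 h comparison. The 594 higher genes had median log2 differences between combined and drought leaves of 1.19, 0.95, 0.80 and 0.89 at 96, 120, 144 and 168 h, and 97.5%, 97.1%, 93.4% and 96% of them were positive. At these times 307, 128, 83 and 96 of them were called higher, against 3.66%, 1.28%, 0.725% and 1.08% of all genes. The 221 lower genes had medians of -0.40, -0.37, -0.38 and -0.40, with 81.4%, 76.5%, 81.0% and 74.2% negative. Of these, 32, 12, 3 and 20 were called lower, against 2.11%, 0.678%, 0.162% and 1.21% of all genes. The lists hang on single libraries of 72 h. Chosen without combined replicate 3, the higher list is 1 gene, whose difference was -0.32, -1.05, 0.10 and -0.11 at 96, 120, 144 and 168 h. Chosen without drought replicate 3, the lower list had medians of -0.07, -0.06 and 0.0391 at 120, 144 and 168 h.

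**Figure D4:**
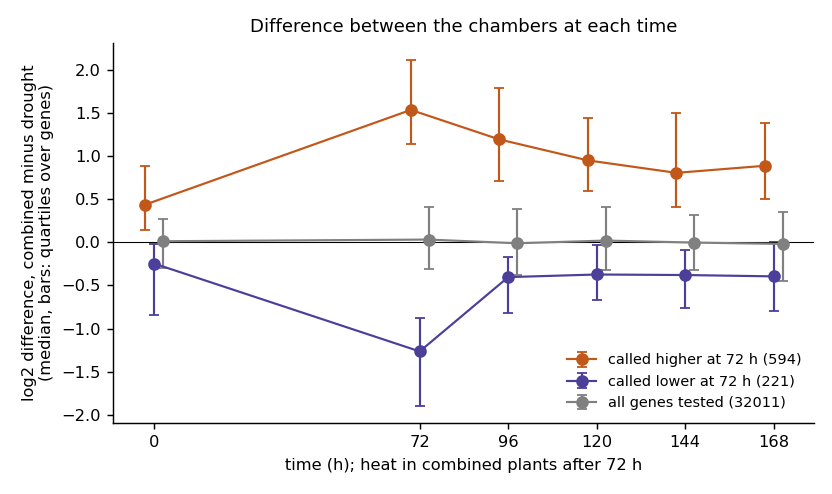
Log2 fold change of combined over drought leaves at each time, from 0 to 168 h, for the 594 genes higher and the 221 genes lower in combined leaves at 72 h and for all genes. Points are medians and bars run from the lower to the upper quartile over genes; the higher list peaks at 1.53 at 72 h, where it was chosen, and lies between 0.80 and 1.19 afterwards.

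Averaged over 96 to 168 h, combined leaves had 5052 genes (15.8%) above and 4529 (14.1%) below drought leaves. With the estimated correlation, limma-voom called 3012 higher and 1796 lower, and without the libraries low in the 405 genes edgeR called 2390 higher and 2308 lower. Of the 594 genes higher at 72 h, 528 (88.9%) were among those 5052, of which they made up 10.5%, and of the 221 lower genes 133 (60.2%) were among the 4529, of which they made up 2.94%. The 5052 genes were not equally raised in the 72 h libraries. Their median log2 level relative to the drought mean of 72 h was 0.03, 0.32 and 0.95 in combined replicates 1, 2 and 3, against 0.06, -0.01 and -0.02 in drought replicates 1, 2 and 3. The median of the 4529 later lower genes was -0.12, -0.27 and -0.69 in combined replicates 1, 2 and 3, against -0.11, 0.02 and 0.10 in the drought replicates. Combined replicate 1 was within the range of the drought libraries in the higher list and next to it in the lower list, and combined replicate 3 was farthest from it in both. At 0 h the medians of the 5052 genes were 0.21, 0.29 and 0.06 in combined replicates 1, 2 and 3, so replicate 3 did not lead there. Whether the level of these genes in combined replicate 3 has a part in the 72 h calls was not tested beyond leaving the library out.

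Across all genes the 72 h difference had a Pearson's r of 0.422, 0.312, 0.372 and 0.355 with the difference of combined and drought leaves at 96, 120, 144 and 168 h. These values describe 32011 genes from separate libraries of the same chambers.

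The control leaves, which were neither droughted nor heated, moved along the same lists over time. Relative to control leaves of 72 h, the 594 higher genes had a median log2 level of -0.35, 0.65, 0.43, 0.11 and 0.19 in the control leaves of 0, 96, 120, 144 and 168 h. At 96 h 91.2% and at 120 h 92.8% of them were above their own 72 h level. The 221 lower genes had medians of -0.24, -0.50, -0.36, -0.04 and -0.16, and 13.1% and 9.50% of them were above at 96 and 120 h. The median over all genes was between 0.00 and 0.02 at these times. Genes that were higher in combined than in drought leaves at 72 h were therefore mostly genes that stood higher, by group mean, in control leaves of 96 and 120 h than in those of 72 h, and conversely for the lower genes. Control replicates 1, 2 and 3 of 120 h had higher-list medians of 1.11, 0.20 and 1.06 relative to drought leaves of 72 h. Control libraries of 72 h were at 0.27 to 0.43 on that scale, so replicate 2 of 120 h did not share the rise. Across all genes, the 96 h minus 72 h difference of control leaves had an r of 0.269 with the combined minus drought difference of 72 h, and the 120 h and 144 h differences had r of 0.262 and -0.130.

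The arms can be followed on a common scale, relative to control leaves of 0 h. The higher genes had medians of 0.78, 1.34, 1.92, 1.64, 0.88 and 1.25 in combined leaves at 0, 72, 96, 120, 144 and 168 h, against 0.27, 0.00, 0.68, 0.69, 0.03 and 0.36 in drought leaves and 0.00, 0.35, 1.01, 0.83, 0.50 and 0.53 in control leaves. All 3 arms stood highest at 96 or 120 h and lower at 144 h. The lower genes had medians of -0.20, -0.59, -0.52, -0.38, 0.06 and -0.24 in combined leaves, against 0.11, 0.71, -0.06, -0.03, 0.44 and 0.13 in drought leaves and 0.00, 0.24, -0.28, -0.16, 0.23 and 0.06 in control leaves. For this list the combined leaves of 72 h were the lowest point of their arm and the drought leaves of 72 h the highest point of theirs. The values of combined and drought leaves at 72 h chose the lists, and those of the other times did not.

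**Figure D5:**
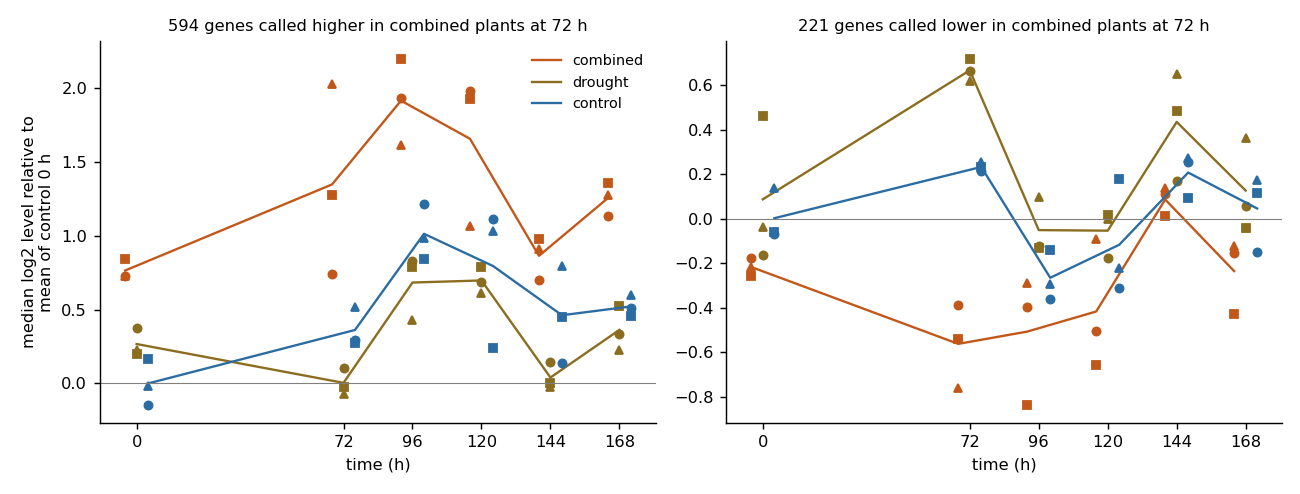
Median log2 level, in each library at 0 to 168 h, of the 594 genes higher (left) and the 221 genes lower (right) in combined than in drought leaves at 72 h, relative to the mean of the control libraries of 0 h. Points are libraries, set slightly apart by arm, marker shape gives the replicate number and lines join the means of the 3 libraries; at 72 h combined replicates 1, 2 and 3 sit at 0.74, 1.28 and 2.03 for the higher genes.

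Genes of the drought response, taken from the later times of the drought arm, were used to place each group on the drought response at 72 h. Over 96 to 168 h, 3925 genes (12.3%) were higher and 3139 (9.81%) lower in drought than in control leaves. With the estimated correlation, limma-voom called 217 higher and 127 lower. At 72 h the drought-higher genes had a median log2 difference from control of 0.20 in combined leaves and 0.33 in drought leaves, and the drought-lower genes had -0.18 in combined leaves and -0.41 in drought leaves. Both groups, set against the same control libraries, thus lay on the side of the later drought response, combined leaves by a smaller median than drought leaves. Drought libraries of 0 h lay there too, with 0.12, 0.11 and 0.16 for the drought-higher and -0.23, -0.12 and -0.36 for the drought-lower genes. Combined libraries of 0 h had -0.004, 0.074 and -0.23, and 0.04, -0.03 and 0.34. For the drought-higher genes, combined replicate 1 of 72 h (0.08) lay within the control range of -0.17 to 0.10. The side alone therefore did not set drought leaves of 72 h apart from those of 0 h.

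Set directly against drought leaves, the combined leaves of 72 h had a median of -0.11 over the drought-higher genes and of 0.23 over the drought-lower genes, against 0.03 over all genes. Of the drought-higher genes, 56 (1.43%) were lower and 6 higher in combined leaves, and of the drought-lower genes 152 (4.84%) were higher and 6 lower. Read the other way, 152 of the 594 higher genes (25.6%) were drought-lower genes, against 9.81% of all genes, and 56 of the 221 lower genes (25.3%) were drought-higher genes, against 12.3%. The 6 libraries overlapped on this scale. The drought-higher genes had a median log2 level from control of 0.08, 0.23 and 0.22 in combined replicates 1, 2 and 3, and of 0.29, 0.22 and 0.49 in drought replicates 1, 2 and 3. The same tilt was present at 0 h, with medians of -0.19 for the drought-higher and 0.34 for the drought-lower genes between combined and drought leaves at 0 h. Without the libraries low in the 405 genes, which leaves combined replicate 3 as the only combined library of 72 h, the drought-lower genes, listed anew, had a median of -0.13 and thus the opposite sign.

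The 405 genes that were nearly absent from some libraries were lower in combined than in drought leaves by value and not by test. Their median log2 fold change at 72 h was -1.10, and 225 of them (55.6%) were at least 2-fold lower, against 5.61% of all genes. None (0) of the 405 were called by edgeR, against 0.69% of all genes called lower, the smallest adjusted p being 0.172. Against control leaves the median was -1.10 in combined leaves and 0.01 in drought leaves. The spread among the combined libraries, from 0.462% to 109% of the usual level, was larger than the difference between the groups. The median of the same genes was 0.01 at 0 h, where a combined and a drought library each lacked them.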

How the data were processed

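Leaf mRNA libraries were made with a stranded Illumina TruSeq kit, per the labels' protocols. TopHat, Cufflinks and HTSeq were used, per the submitters' processing notes, with no versions or roles. Genome build, annotation and strand setting were not given in the sources used here. Raw read counts per gene were deposited by the authors, as whole numbers, for 32190 Pavir v4.1 identifiers in 54 libraries. None (0) matched the 74976 genes of the RefSeq table for P.virgatum_v5.

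Counts were tested with edgeR 4.0.16 (R 4.3.3): default expression filter (minimum count 10, minimum total 15), which removed 179 genes, TMM scaling, and a quasi-likelihood fit over 18 groups, which share an estimate of the spread (common biological coefficient of variation 0.433). CPM are TMM-scaled; log2 CPM use a prior count of 2. Within replicate pairs, squared count deviations averaged at least 45.2 times the sampling variance over genes, so none of these pairs was a copy. The check covered all groups of 72 h and the combined and drought libraries of 0 h, but not the control libraries of 0 h. Each test was tried on simulated data with 100 genes changed 2-fold and 100 changed 4-fold.

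The libraries, lists, tests and alternatives were chosen with earlier results of these data known. Named genes are the 2 higher and 2 lower genes of smallest p with a mean of at least 5 CPM, and, for the 72 h comparison and the mean of both times, no overlap between groups; in the interaction, where none was called, the smallest p filled the places. Titles of 94 h were taken as 96 h, the time in the series design. Alternatives were DESeq2 1.42.0, its size factors, other filters, limma 3.58.1 (voom), fewer libraries and a replicate block.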

Additional observations from a re-analysis of the deposited data

Results flagged for a closer look

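Pavir.3NG056600.v4.1 was set aside for a closer look because its chambers changed sides. All combined libraries were above all drought libraries at 72 h, and all were below them at 0 h. The separation at 0 h was narrow, with combined replicate 3 at 8.50 CPM and drought replicate 2 at 8.76 CPM. Drought replicate 3 of 0 h stood apart at 21.1 CPM. The change in the log2 difference from 0 h to 72 h was 1.60 ± 0.33 (SE). The test of that change in edgeR did not pass the threshold (adjusted p = 0.22), while DESeq2 gave an adjusted p of 0.00301. Of all 32011 genes tested, 42 had this pattern of non-overlapping libraries and 100 had the reverse pattern, against 589 and 354 that kept their side. Taken singly, 7.71% of all genes were above without overlap at 72 h and 7.32% were below without overlap at 0 h.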

How the results depend on the processing

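In the 72 h comparison (815 genes), 1819 were called by DESeq2, 426 by limma-voom, 313 by limma-voom with a correlation of 0.204 estimated within treatment and number (added after the data were seen), 0 in a model of only the compared groups (3534 at an unadjusted p below 0.05), and 1874 without the 16 libraries low in the 405 genes, where the lone combined library is assumed to vary like the other groups. Leaving out each library gave 1 to 1392 genes: 420, 118 and 159 without drought replicates 1, 2 and 3, and 1392, 534 and 1 without combined replicates 1, 2 and 3. At 0 h (0 genes), DESeq2 called 448 and leaving out a library gave 0 to 110. For the interaction (0 genes), DESeq2 called 207, 4 were called without the low libraries, and leaving out a library gave 0 to 27. Over both unheated times (1126 genes), DESeq2 called 1868, limma-voom with the correlation 152, the compared groups alone 259, and 614 without the low libraries, with 373 to 1491 on leaving out a library (658 without drought replicate 3 of 0 h, and 702 without drought replicate 3 of 72 h or combined replicate 2 of 0 h). Combined against control (512 genes) gave 1250 by DESeq2, 57 by limma-voom, 18 with the correlation, 0 with the compared groups alone (3657 unadjusted), 2922 without the low libraries and 865 with the 405-gene level as covariate, with 0 to 1764 on leaving out a library (3, 39 and 10 without control replicates 1, 2 and 3). Drought against control at 72 h (15 genes) gave 161 by DESeq2, 9 by limma-voom, 6 with the correlation, 45 with the compared groups alone, 0 without the low libraries (2399 unadjusted) and 30 with the covariate, with 0 to 15 on leaving out a library. Drought against control over 96 to 168 h (7064 genes) gave 344 with the correlation. Without combined replicate 3 the 72 h higher list held 1 gene, with differences of -0.32, -1.05 and -0.11 at 96, 120 and 168 h. Over leaving out each library, the median of the 72 h higher list ran from -0.32 to 1.35 at 96 h, from -1.05 to 1.19 at 120 h and from -0.11 to 0.97 at 168 h, and that of the lower list at 168 h from -0.54 to 0.0391, the last without drought replicate 3 of 72 h, and the drought-lower list had -0.13 without the low libraries. The cause was not tested. Combined against drought over 96 to 168 h (9581 genes) gave 4808 with the correlation and 4698 without the low libraries. Size factors and filters moved no count of calls by over 1.5 times. With size factors the last comparison had 4736 genes higher and 4944 lower, and the all-gene median changed sign, to -0.00432 at 0 h and to -0.00946 for drought against control at 72 h.

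Same-numbered combined and drought libraries of 72 h correlated at 0.02, 0.22 and 0.24 in their deviations from the group means. Combined replicates 2 and 3 correlated best with the drought library of their number, and combined replicate 1 with drought replicate 2 (0.11). Whether the numbers pair the libraries is thus not settled by these values. With the replicate number as a block, 1035 genes were called at 72 h, 0 at 0 h and for the interaction, 1312 over both unheated times, 538 for combined and 18 for drought against control at 72 h, and 8062 over 96 to 168 h.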
